A study of Helianthemum marifolium subsp. andalusicum and Helianthemum marifolium subsp. marifolium and Helianthemum marifolium subsp. molle with 16 samples.

Results

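The 200 most abundant leaf transcripts of Helianthemum marifolium, a Mediterranean rock rose, were taken as the 200 clusters of assembled transcripts with the highest mean abundance over 16 RNA-seq libraries, out of 100462 clusters counted. Abundance was expressed as CPM, the count of a cluster divided by all counts of its library and multiplied by 1000000. The members were chosen by these same counts, so a high level is a property of the list and not a result. Clusters are called here by their rank in mean CPM, from rank 1 downwards, because the files used here pair no gene name with any cluster. The edge of the list was narrow, since rank 200 had a mean of 456 CPM and the next cluster a mean of 452 CPM.

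The libraries came from poly-A RNA of adult leaves of plants raised from seed in a greenhouse and sampled 446 days after sowing. The 4 groups are the subspecies andalusicum, marifolium, molle and origanifolium, with 4 libraries each and no treatment. The labels give the origanifolium libraries as a species of its own, while the design text counts it among the subspecies. Each subspecies holds 2 codes of 2 libraries, and the labels do not say what a code is, nor that each library came from another plant. A library is named by its subspecies with the number its title gives, as in andalusicum 3. The p-values therefore measure only the spread between libraries. No cluster could be checked against leaf marker genes for want of names.

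In a green leaf a small number of genes supply a large part of the messenger RNA. Messages for the light-harvesting proteins of the chloroplast and for the small subunit of Rubisco, the enzyme that fixes carbon dioxide, are usually among the most abundant. Many such messages also follow light, time of day and leaf age. Transcripts assembled without a genome can also split the message of 1 gene over several clusters, so that a cluster is not always a gene. A longer transcript gives more counts at the same number of molecules, so ranks and shares in CPM are shares of counts, and an order per molecule can be read only from the values per length.

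The totals ran from 22170314 to 34121011 counts a library, and 199 of the 200 clusters reached 10 counts in each of them. A set of 6240 clusters had more than 95% of their reads in marifolium 12 and 18, where they made up 1.60% and 2.52% of all counts. By this choice they held little elsewhere, at most 0.00570% in any other library. No other pair of libraries was counted in this way. Of the 200 most abundant clusters 0 were among the 6240. Counts of called clusters, and calls lost without marifolium 12 and 18, are given beside the results.

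The 200 clusters held between 21.7% and 32.0% of the counts of a library, with a mean of 27.1% ± 3.24 (SD, n = 16). In andalusicum the share was 22.7% in library 1, 31.0% in library 3, 24.3% in library 6 and 28.6% in library 8. In marifolium it was 26.4% in library 12, 30.9% in library 15, 21.7% in library 17 and 26.8% in library 18. The lowest and the highest share of these subspecies were thus further apart than their means, 26.6% ± 3.86 and 26.5% ± 3.74 (SD, n = 4).

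In molle the share was 25.0% in library 22, 32.0% in library 25, 29.8% in library 27 and 30.5% in library 29, a mean of 29.3% ± 3.05 (SD, n = 4). In origanifolium it was 27.4% in library 31, 22.7% in library 33, 27.96% in library 38 and 26.5% in library 39, a mean of 26.1% ± 2.40 (SD, n = 4). Molle had the highest mean, 2.89 percentage points above the mean of the other subspecies, but all 4 subspecies overlapped. An exact permutation test of all 4 subspecies at once did not pass over libraries (p = 0.520, 2627625 ways of grouping them) or over the means of codes (p = 0.429, 105 ways, the smallest p they allow being 0.00952). The difference of molle from the others was not tested on its own. Without marifolium 12 and 18 it was 3.08 percentage points, and the exact permutation test of all 4 subspecies gave p = 0.591. A 95% Wilson interval on a share was at most 0.0372 percentage points wide, which covers counting error only. In such bulk samples fewer cells of a type and less RNA per cell cannot be told apart.

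**Figure D1:**
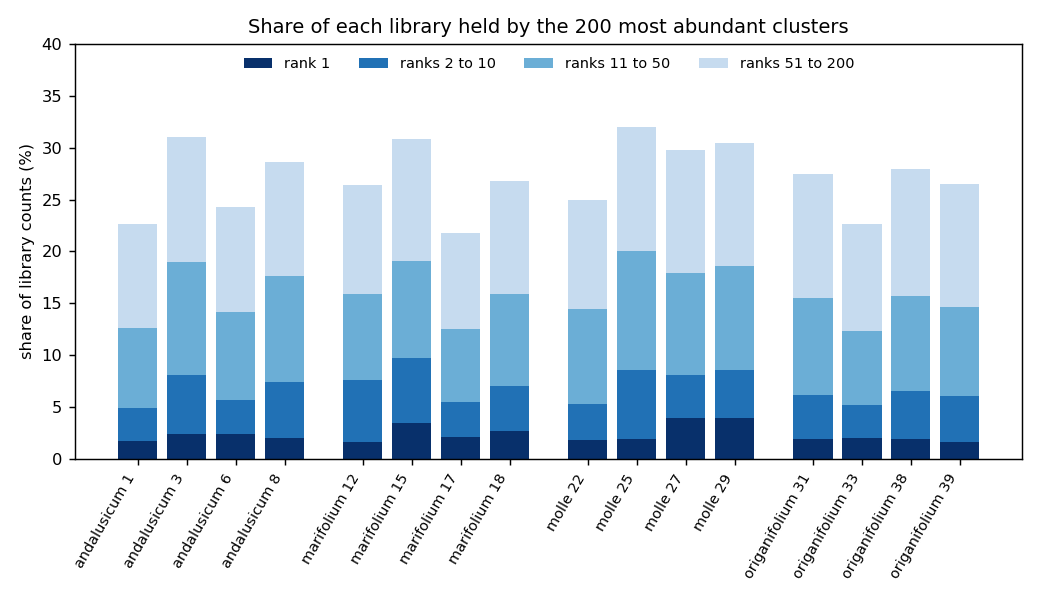
Share of all counts of each library (y axis, %, from 0) held by rank 1, ranks 2 to 10, ranks 11 to 50 and ranks 51 to 200, stacked, for the 16 libraries (x axis) in 4 subspecies. The stacks reach from 21.7% in marifolium 17 to 32.0% in molle 25, and the libraries of a subspecies differ more than the subspecies means.

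Libraries of the same code differed by as little as 0.703 percentage points, in molle 27 and 29, and by as much as 8.37 percentage points, in andalusicum 1 and 3. The share moved with the TMM factor, the scaling factor that edgeR sets from the bulk of clusters. Marifolium 17, with the lowest share, had the highest factor of the 16 libraries (1.18), and molle 25, with the highest share, had the lowest (0.886). Both values come from the same counts, so neither is an independent measure of the other.

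The concentration went on below and above the list. The next 200 ranks added 6.47% to 8.24% of the counts, and the first 10 ranks alone held 4.93% to 9.75% (exact permutation p = 0.347 across subspecies, 0.520 after Benjamini-Hochberg adjustment over the 2 shares tested). Between 763 clusters in the most concentrated library and 1473 in the least were needed to reach 50% of the counts. When each library was given its own 200 most abundant clusters, these held 23.8% to 34.01% of its counts.

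Most of the list came back when a single subspecies was ranked alone. Each subspecies is part of the mean that set the list, so some of this overlap is built in. Ranked on 1 subspecies alone, 166 of the 200 clusters came back in molle, 168 in origanifolium, 173 in marifolium and 174 in andalusicum, and 127 came back in every subspecies. In single libraries 145 to 162 of the 200 were among that library's own 200, 71 were so in every library, and 520 different clusters reached the 200 of at least 1 library. Of the members, 170 stayed on the list whichever subspecies was left out of the ranking. The other 30 dropped out when a certain subspecies was left out, and in 7 clusters over 50% of the summed CPM came from 1 subspecies.

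Rank 1 (Cluster-3823.45670) was the most abundant cluster in 14 of the 16 libraries, and it held 1.59% to 3.97% of the counts. It stood at 16618, 23782, 23455 and 20001 CPM in andalusicum 1, 3, 6 and 8. In marifolium 12, 15, 17 and 18 its level was 16389, 34112, 21386 and 27113 CPM. In molle 22, 25, 27 and 29 it was at 18076, 18867, 39488 and 39663 CPM and in origanifolium 31, 33, 38 and 39 at 18790, 19740, 19270 and 15891 CPM. The molle libraries fell into a low and a high pair, which are the 2 molle codes, and the high pair held the highest values of the series. Neither the difference across the 4 subspecies (edgeR adjusted p = 0.556) nor that between codes within subspecies, tested for all 4 subspecies jointly (0.818), passed the test. The split between the molle codes was not tested on its own.

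Rank 2 was the most uneven of the leading clusters and the first in marifolium 12 and molle 25. It was at 1133, 10031, 4802 and 15222 CPM in andalusicum 1, 3, 6 and 8. In marifolium 12, 15, 17 and 18 its level was 26562, 11337, 2281 and 3851 CPM. In molle 22, 25, 27 and 29 it was at 3014, 20017, 4767 and 816 CPM, and in origanifolium 31, 33, 38 and 39 at 174, 1436, 2003 and 1869 CPM. The highest library of each subspecies lay at least 11.5-fold above the lowest. Libraries of the same code were also far apart, as andalusicum 1 and 3 or molle 22 and 25 show. The largest ratio within a subspecies was 24.5, between molle 25 and 29, which have different codes, and the 4 subspecies overlapped (edgeR adjusted p = 0.272).

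The other 8 of the first 10 ranks were far steadier, with the highest of the 16 libraries 2.12-fold (rank 10) to 3.15-fold (rank 7) above the lowest. Their pooled SD within subspecies on the log2(CPM + 1) scale was between 0.312 (rank 3) and 0.498 (rank 7), against 1.71 in rank 2. Rank 3 ran from 4238 CPM in andalusicum 6 to 9639 CPM in molle 29, with a median of 5897 CPM. Rank 4 had a median of 5352 CPM, rank 5 of 4824 CPM, rank 6 of 4731 CPM, rank 7 of 3984 CPM, rank 8 of 4697 CPM, rank 9 of 4133 CPM and rank 10 of 4053 CPM. None of the first 10 ranks was called across the 4 subspecies in the edgeR test, the adjusted p of ranks 3 to 10 lying between 0.493 (rank 3) and 0.992 (rank 10).

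**Figure D2:**
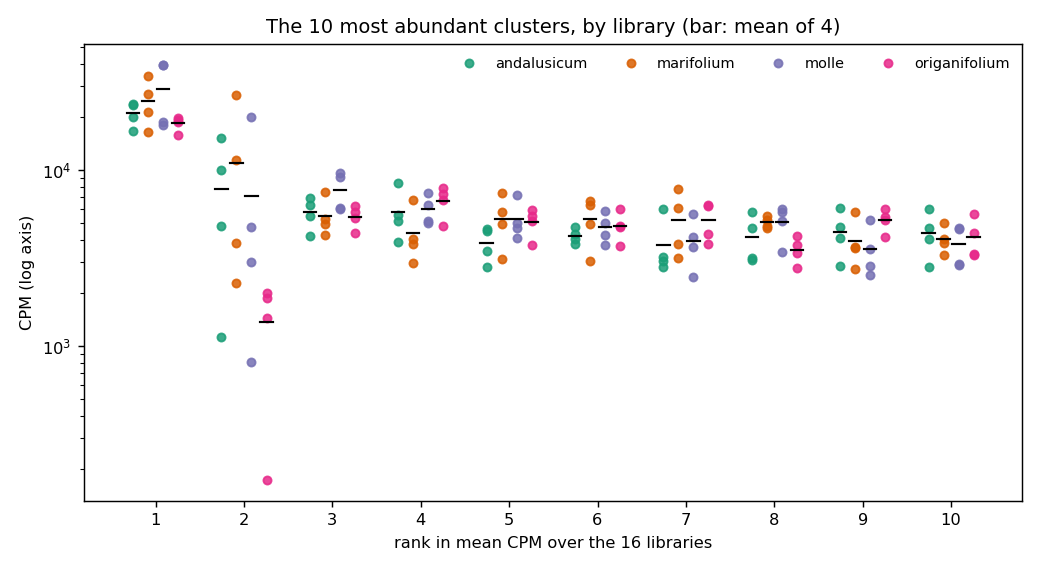
CPM on a log axis (y) of ranks 1 to 10 (x), with 1 point per library coloured by subspecies and a black bar at the mean of the 4 libraries of a subspecies. Rank 2 spans 174 to 26562 CPM, while each of ranks 3 to 10 spans at most 3.15-fold over the 16 libraries.

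Over the list the spread between libraries of a subspecies was modest for most clusters and very large for a few. The pooled SD within subspecies had a median of 0.458 on the log2(CPM + 1) scale, which is a factor of 1.37, with quartiles of 0.355 and 0.679. The SD over the 4 subspecies of their own medians was 0.0229, these being 0.413 in origanifolium, 0.428 in molle, 0.455 in andalusicum and 0.462 in marifolium. The next 200 clusters by rank had a median of 0.447 and all 46027 clusters kept for testing a median of 0.534. On CPM scaled by the TMM factors the median of the 200 was 0.512.

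The median ratio of the highest to the lowest of the 4 libraries of a subspecies was 1.91 in origanifolium, 1.95 in molle, 2.01 in andalusicum and 2.08 in marifolium. A ratio under 2 in every subspecies was found in 36 clusters. A ratio of at least 4 in at least 1 subspecies was found in 51, of which 23 had it in 1 subspecies, 12 in 2, 13 in 3 and 3 in all 4. Those 3 were ranks 2, 163 and 190, of which rank 163 was picked out after its values were seen. The 20 most variable of the 200 clusters held 55.1% of the summed variance within subspecies.

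For each cluster the sum of squares over the 16 libraries was divided between subspecies, codes of a subspecies and libraries of a code. The medians over the 200 clusters were 31.9%, 21.6% and 39.9%, where 20%, 26.7% and 53.3% of the degrees of freedom lie. The next 200 ranks gave 34.2%, 22.9% and 37.6%, and all tested clusters 31.1%, 22.3% and 40.5%. More than 50% lay between subspecies in 46 of the 200 clusters (23.0%), in 56 of the next 200 (28%) and in 22.25% of all tested clusters. The division in the most abundant clusters was thus close to that in the rest.

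**Figure D3:**
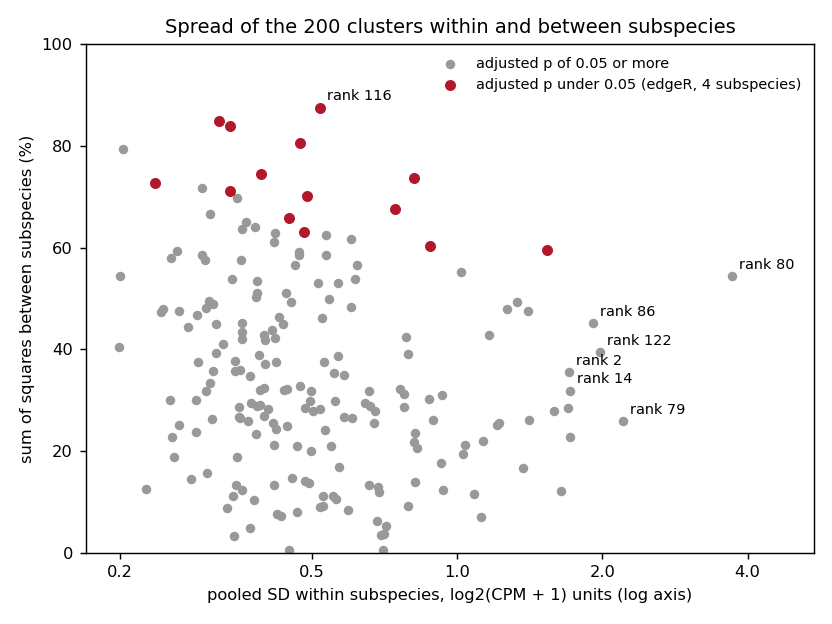
Each of the 200 clusters by its pooled SD within subspecies in log2(CPM + 1) units (x, log axis) and by the percentage of its sum of squares that lies between subspecies (y), with the 14 clusters called across the 4 subspecies in red. Rank 80 lies far to the right at 3.71, and the called clusters lie at 59.6% or more and mostly below an SD of 1.

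Rank 80 (Cluster-3823.45488) varied most within subspecies, with a pooled SD of 3.71 log2 units. In andalusicum 1, 3, 6 and 8 it was at 2424, 4987, 3835 and 2310 CPM, a ratio of only 2.16. In marifolium 12, 15, 17 and 18 it was at 375, 0.132, 0.0325 and 10.4 CPM and in molle 22, 25, 27 and 29 at 492, 0, 0.961 and 293 CPM, the 0 counts of molle 25 allowing up to 0.111 CPM. It was thus abundant in every andalusicum library and nearly absent from some libraries of each of these subspecies, while others were far above that.

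In origanifolium 31, 33, 38 and 39 rank 80 was at 0.0902, 0.287, 486 and 14.3 CPM. Every andalusicum library lay above all 12 others, but andalusicum is also what put the cluster on the list, and it would not be a member without that subspecies. Across the 4 subspecies it did not pass the test (edgeR adjusted p = 0.293), the range over 25 alternatives being 0.0489 to 0.381.

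Rank 79 had the next largest SD, 2.20 log2 units, and here a single library was far from the rest. Molle 22 had 1.61 CPM, while molle 25, 27 and 29 had 752, 652 and 1064 CPM. Andalusicum ran from 836 to 1805 CPM, marifolium from 1076 to 1789 CPM and origanifolium from 148 to 1205 CPM.

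Rank 122 had an SD of 1.98 and its peak in molle 27 at 3060 CPM (3060.5), where molle 22, 25 and 29 were at 36.8, 25.0 and 29.9 CPM. Molle 27 shares its code with molle 29, so the difference lies between libraries of the same code. In andalusicum 1, 3, 6 and 8 it was at 885, 215, 1576 and 104 CPM. Marifolium ran from 68.0 to 273 CPM and origanifolium from 620 to 1793 CPM, without overlap between these subspecies.

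Rank 86 had an SD of 1.92 and was lowest in andalusicum, at 7.90, 60.0, 50.4 and 1347 CPM in libraries 1, 3, 6 and 8. The other libraries ran from 112 CPM in origanifolium 33 to 1785 CPM in molle 29. Rank 14 had an SD of 1.72 through a single low library, marifolium 15, with 27.5 CPM against 2480, 3188 and 2095 CPM in marifolium 12, 17 and 18. The highest value of rank 14 was 8387 CPM in origanifolium 31.

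**Figure D4:**
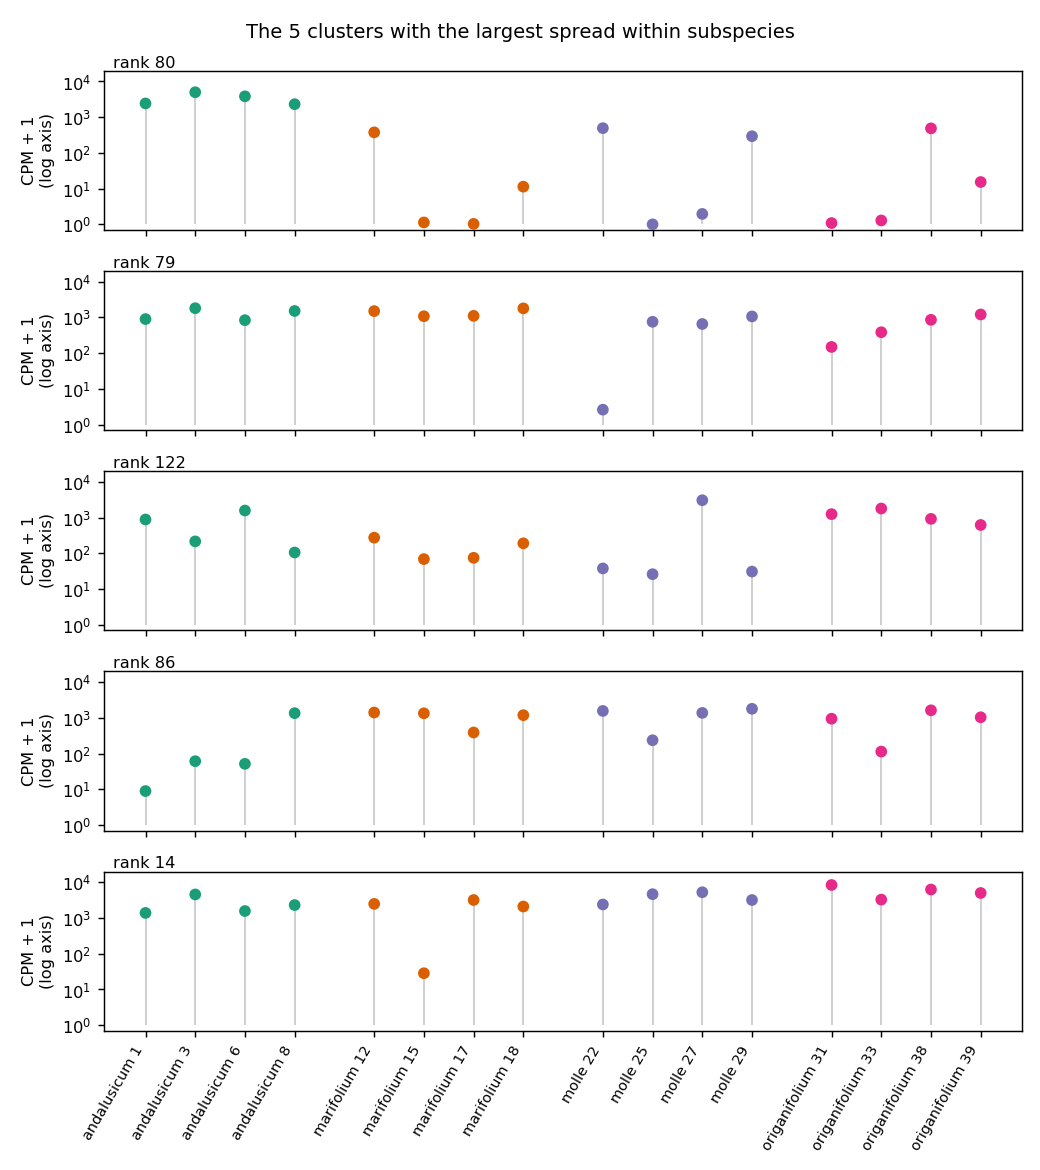
CPM + 1 on a log axis (y) of the 5 clusters with the largest spread within subspecies, ranks 80, 79, 122, 86 and 14, in each of the 16 libraries (x), coloured by subspecies. Single libraries stand out: molle 22 in rank 79 at 1.61 CPM, molle 27 in rank 122 at 3060 CPM and marifolium 15 in rank 14 at 27.5 CPM.

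For some of these clusters the spread was far smaller once clusters with the same gene name in the transcript list were summed. The names follow the forms written by the assemblers Trinity and Oases, and both give transcripts of 1 assembled gene a common name. By these names 46 of the 200 clusters (23.0%) had at least 1 sister cluster, against 21.8% of all tested clusters, and 12 of them shared a name with another member, in 6 pairs. The median SD within subspecies was 0.567 for these 46 and 0.545 for their gene sums, and 22 of them held over 90% of their gene sum. In 35 of the 46 the CPM summed over the gene name varied less within subspecies than the member alone, and in 6 its SD was at most 50% as large. Of the 20 most variable clusters 9 had a sister, and 5 of these were among the 6.

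Ranks 79 and 125 were such a pair, together with rank 916. Where rank 79 was at 1.61 CPM in molle 22, rank 125 was at 1672 CPM, and the sum of the 3 clusters was 1728 CPM. In molle 25, 27 and 29, where rank 79 was not low, rank 125 was at 1287, 1053 and 1638 CPM. The sums there were 2127, 1784 and 2832 CPM. The sum ran from 823 CPM in origanifolium 33 to 2832 CPM in molle 29, and its pooled SD within subspecies was 0.467 against 2.20 for rank 79 alone. Rank 79 made up 0.0933% of the sum in molle 22 and 83.8% in marifolium 12. Molle 22 thus had the lowest sum of molle, but its sum was far closer to the other molle libraries than rank 79 alone was.

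Rank 86 shared its name with ranks 15 and 224. The sum was lowest in marifolium 17 (2127 CPM) and highest in andalusicum 3 (7400 CPM), with an SD of 0.465, against 1.92 for rank 86 alone. Rank 86 made up 0.195% of the sum in andalusicum 1 and 39.6% in molle 29. In andalusicum 1, 3 and 6, where rank 86 was lowest, rank 15 was at 3872, 6808 and 5564 CPM. In andalusicum 8 rank 86 was at 1347 CPM and rank 15 at 5088 CPM. For rank 15, libraries 3, 6 and 8 were the highest of the 16. Its lowest andalusicum library was andalusicum 1, where rank 86 was also lowest.

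Rank 80 shared its name with ranks 214, 232 and 371. The sum was 2515, 5572, 4289 and 3601 CPM in andalusicum 1, 3, 6 and 8 and ran from 187 CPM (marifolium 17) to 2597 CPM (marifolium 12) in the other libraries. Its SD was 0.984 against 3.71 for rank 80 alone, so that a large spread remained. Rank 80 made up 96.4% of the sum in andalusicum 1 and 0% in molle 25, with a median of 7.96% over the 16 libraries. How reads shared by sister clusters were counted is not stated in the sources used here, and the part of this in the values was not tested.

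**Figure D5:**
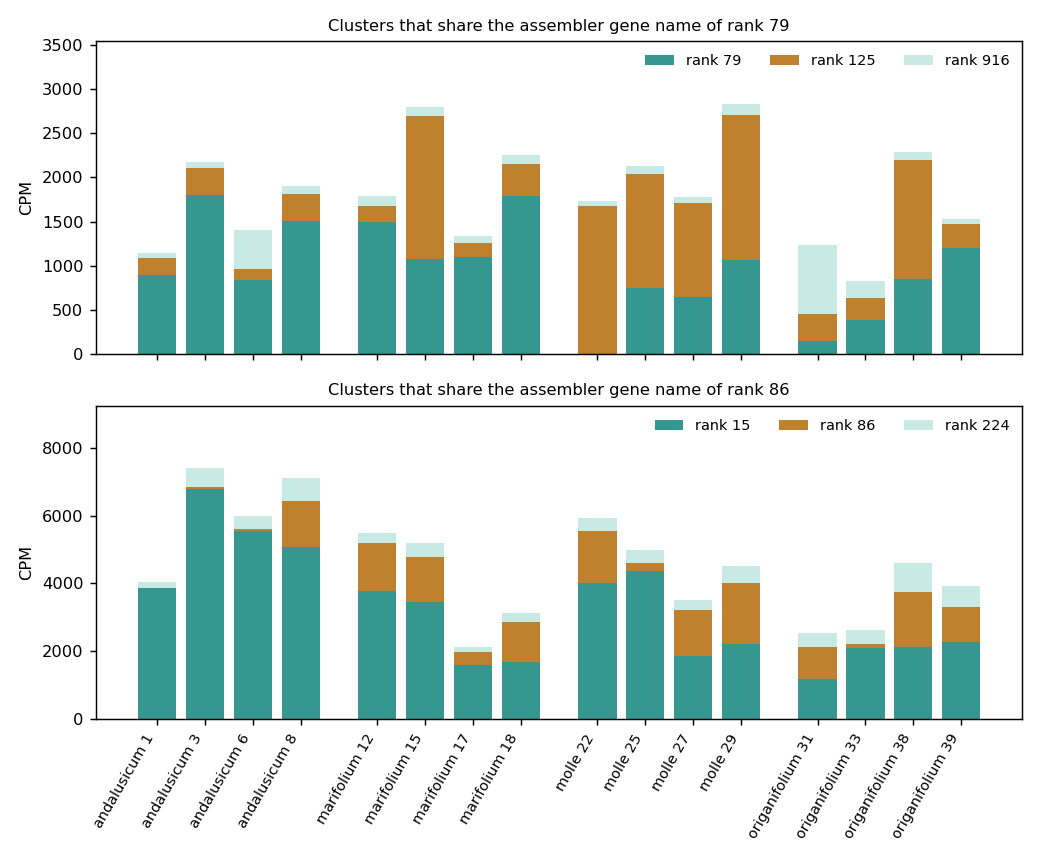
CPM (y, from 0) of the clusters that share the assembler gene name of rank 79 (top) and of rank 86 (bottom), stacked, in the 16 libraries (x). In molle 22 rank 79 is at 1.61 CPM while the stack reaches 1728 CPM, and in andalusicum 1 rank 86 is at 7.90 CPM under a stack of 4055 CPM.

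Other members were steady. Rank 74 had the smallest pooled SD within subspecies, 0.200 log2 units, a factor of 1.15. In the order of library numbers, andalusicum had 826, 1015, 950 and 1279 CPM, marifolium 991, 1259, 998 and 903 CPM, molle 1020, 1165, 1097 and 1395 CPM and origanifolium 873, 804, 881 and 966 CPM. Its 16 libraries lay within a factor of 1.74 of each other. Ranks 169, 136, 123 and 196 followed, with SDs of 0.200, 0.203, 0.227 and 0.237. Of these 5 clusters, rank 196 was called across the 4 subspecies and rank 136 in origanifolium against the others.

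In the edgeR quasi-likelihood test, 14 of the 200 clusters differed across the 4 subspecies at an adjusted p under 0.05, which is 7%. The background was 5.78% of the 46027 clusters tested, close to the share of the members. At an unadjusted p under 0.05 there were 54 members (27.0%) against 25.7% of all clusters. The 14 were ranks 39, 40, 53, 55, 75, 109, 116, 142, 159, 165, 188, 190, 192 and 196, and none belonged to the first 38 ranks. Their highest subspecies mean was 1.91-fold to 24.1-fold above their lowest, with a median of 3.47, where the median of all 200 was 1.65. The test picked the 14 by such differences, so a larger ratio is built in. Of the 14, 8 would be on the list without the subspecies in which they were highest. Ranks 159, 165, 188, 190, 192 and 196 would not. Their calls, and so the count of 14 set against the background, are not independent of the choice. The highest mean was in molle in 8 of the 14, in origanifolium in 4 and in andalusicum and marifolium in 1 each. Over all 200 it was in molle in 74, in origanifolium in 59, in andalusicum in 35 and in marifolium in 32. With the 2 libraries of each code summed 0 of the 200 were called (36 at an unadjusted p under 0.05), without marifolium 12 and 18 there were 5, with voom 29 and with DESeq2 41, which included the 14. Of the 14, the calls of ranks 190 and 196 held in 12 and 9 of 25 alternatives. With summed codes each subspecies against the others also had 0 calls, with 21 to 40 members at an unadjusted p under 0.05. Of all clusters tested with summed codes, 0.0219% (marifolium) to 0.0891% (andalusicum) were called there. Across the 4 subspecies there were 6 without molle 25. Without andalusicum 6 or 8, another molle library, or origanifolium 33 or 39 there were 8 or 9. In these fits 2.79% (without origanifolium 39) to 3.60% (without molle 22) of all clusters tested were called.

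Rank 116 (Cluster-3823.44857) had the smallest p across the 4 subspecies (edgeR adjusted p = 0.00478). It was at 93.4, 270, 133 and 103 CPM in marifolium 12, 15, 17 and 18, and all other libraries were higher. The other subspecies stood at 350 to 709 CPM in andalusicum, 1051 to 1229 CPM in molle and 585 to 1618 CPM in origanifolium. Against the mean of the others it was lower in marifolium (log2 fold change -2.55, SE 0.38, edgeR adjusted p = 0.00419) and higher in molle (log2 fold change 1.42, SE 0.30, edgeR adjusted p = 0.0221). Without marifolium 12 and 18 the lower level in marifolium did not pass (edgeR adjusted p = 0.0890), although marifolium 15 and 17 were below every library of the other subspecies. The call as higher in molle was lost without that pair (0.0612) and without molle 25 (0.0562), 27 (0.0666) or 29 (0.0679).

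Rank 165 was at 217, 234, 292 and 219 CPM in andalusicum and at 718, 835, 1083 and 1051 CPM in origanifolium, in the order of library numbers. Marifolium lay between 442 and 935 CPM and molle between 139 and 454 CPM. It was lower in andalusicum (log2 fold change -1.30, SE 0.29, edgeR adjusted p = 0.0221) and higher in origanifolium (1.35, SE 0.25, edgeR adjusted p = 0.0111). The andalusicum and origanifolium libraries did not overlap, while molle overlapped with andalusicum. The andalusicum call was lost when any 1 of libraries 1, 3, 6 and 8 was left out (edgeR adjusted p = 0.0778, 0.0559, 0.0548 and 0.0728), and the origanifolium call without origanifolium 38 (0.0506). Rank 165 would not be on the list without origanifolium.

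Rank 40 was lower in every origanifolium library than in any other, at 723, 491, 795 and 999 CPM in libraries 31, 33, 38 and 39. Its lowest value in the remaining 12 libraries was 1439 CPM, in marifolium 15, and its highest was 3749 CPM, in molle 25. It was lower in origanifolium (log2 fold change -1.39, SE 0.25, edgeR adjusted p = 0.00900) and higher in molle (1.11, SE 0.21, edgeR adjusted p = 0.0121). The molle libraries overlapped with marifolium 18, at 2050 CPM against 2043 CPM in molle 29, and the molle call was lost without molle 25 (edgeR adjusted p = 0.0633).

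Rank 39 was the member called higher in andalusicum with the largest change (log2 fold change 2.32, SE 0.41, edgeR adjusted p = 0.00634). It was at 3278, 6193, 4803 and 3223 CPM in andalusicum 1, 3, 6 and 8 and ran from 185 CPM in origanifolium 33 to 2527 CPM in molle 25 elsewhere. All andalusicum libraries lay above all others. Across the 4 subspecies the adjusted p of rank 39 was 0.0170, and 0.0514 without marifolium 12 and 18 (edgeR). Rank 39 and rank 20 share a gene name, and rank 39 made up 7.85% of their summed CPM in origanifolium 33 and 62.8% in andalusicum 3. The sum was 5659, 9858, 8706 and 5766 CPM in andalusicum 1, 3, 6 and 8. Molle 25, at 7841 CPM, lay above andalusicum 1 and 8, so the sum did not separate andalusicum from all other libraries.

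In andalusicum 2 of the 200 clusters were called, rank 39 as higher and rank 165 as lower, against backgrounds of 3.03% higher and 0.765% lower. This is 1.00% of the members and below the 3.79% of all tested clusters called there in either direction. Without andalusicum 1 or 6 the count was 1, and without andalusicum 3 it was 4. Of all clusters tested, 2.12%, 2.11% and 2.11% were called without andalusicum 1, 6 and 3. The members' median log2 change was -0.13, and that of all tested clusters 0.07.

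In marifolium 4 of the 200 (2%) were called against a background of 2.25% in either direction. Rank 190 was higher (background 1.54%), and ranks 55, 116 and 143 were lower (background 0.706%). Rank 190 (Cluster-3823.42488) had the largest called increase (log2 fold change 2.77, SE 0.67, edgeR adjusted p = 0.0431). It was at 342, 1005, 853 and 2223 CPM in marifolium 12, 15, 17 and 18. However, origanifolium 31 and 33 had 1712 and 505 CPM and origanifolium 38 and 39 had 41.3 and 77.0 CPM, so the groups overlapped. Andalusicum lay between 49.7 and 269 CPM and molle between 15.6 and 75 CPM. Without marifolium 12 the count of members called was 2, and without 17 or 18 it was 1. Of all clusters tested, 1.22%, 1.85% and 0.963% were called without marifolium 12, 17 and 18. Rank 190 is on the list through marifolium and would not be a member without it. Its high level there, and so its part in the count of 4, is not independent of the choice. Its call was lost when the filter asked for 1 CPM in 8 libraries (edgeR adjusted p = 0.0552), without marifolium 17 (edgeR adjusted p = 0.0600), without marifolium 18 (0.155) and without both 12 and 18 (0.216). The median log2 change in marifolium was -0.12 for the members and -0.03 for all tested clusters. Without marifolium 12 and 18 no member was called in marifolium (0 of 200, with 20 at an unadjusted p under 0.05, edgeR). Of all clusters tested without that pair, 0.249% were called there.

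In molle 7 of the 200 (3.5%) were called, all higher: ranks 40, 75, 109, 116, 142, 159 and 192. Ranks 159 and 192 would not be on the list without molle. Their calls as higher there, and so the count of 7 set against the background, are not independent of the choice. The background was 2.42% in either direction, 1.96% higher and 0.456% lower. The median log2 change of the members was 0.21 against 0.04 for all tested clusters, and 140 of the 200 values were above 0. On library totals alone, without TMM factors, the median of all tested clusters in molle moved by -0.10, and that of the members was 0.11 with 121 values above 0.

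Rank 159 had the largest of the molle changes (log2 fold change 1.86, SE 0.38, edgeR adjusted p = 0.0166), at 1361, 1626, 529 and 1160 CPM in molle 22, 25, 27 and 29. It overlapped with origanifolium 31 at 830 CPM and with marifolium 12 and 15 at 543 and 546 CPM. Rank 142 was at 1250, 1224, 984 and 514 CPM in molle, and molle 29 was within the range of andalusicum and marifolium (463 to 624 CPM). Its log2 fold change was 1.10 (SE 0.20, edgeR adjusted p = 0.0101). Both calls were lost without molle 25, with an edgeR adjusted p of 0.0740 for rank 159 and 0.0508 for rank 142. Without molle 25, 1 of the 7 calls was left, and without marifolium 12 and 18 there were 4. Of all clusters tested, 1.10% and 0.888% were called in molle in these fits.

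In origanifolium 12 of the 200 (6%) were called against a background of 3.41% in either direction, the most of any subspecies. The median log2 change was 0.04 for the members and 0.10 for all tested clusters. Ranks 55, 87, 117, 161, 165, 168 and 196 were higher (background 2.78%), and ranks 34, 36, 40, 112 and 136 were lower (background 0.637%). Ranks 161, 165, 168 and 196 would not be on the list without origanifolium. Their calls as higher there, and so the count of 12 set against the background and the other subspecies, are not independent of the choice. The count was between 2 and 13 when 1 library was left out, being 2 without origanifolium 38, 3 without 33 or 39, 4 without 31, and 7, 6 and 5 without molle 22, 25 and 27. It was also 2 without marifolium 12 and 18. Of all clusters tested, 0.938% were called without origanifolium 38, 1.43% without 33, 0.983% without 39 and 1.10% without 31. The share was 2.38%, 2.36% and 2.24% without molle 22, 25 and 27, and 0.748% without marifolium 12 and 18.

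The largest increase in origanifolium was that of rank 168 (log2 fold change 2.57, SE 0.64, edgeR adjusted p = 0.0413), and it was carried by single libraries. Origanifolium 31, 33, 38 and 39 had 3968, 891, 336 and 207 CPM, while andalusicum ran from 77.4 to 320 CPM, marifolium from 208 to 539 CPM and molle from 40.5 to 422 CPM. Rank 168 is on the list through origanifolium, so its high level there is part of the choice. The call held in 10 of 25 alternatives. It was lost without origanifolium 31 (edgeR adjusted p = 0.409), with codes summed (0.252) and without marifolium 12 and 18 (0.0926). With voom and the code as random block the adjusted p was 0.10. Rank 55 was more even, at 1856, 2327, 2179 and 1893 CPM in origanifolium 31, 33, 38 and 39, and overlapped only with molle 25 at 2047 CPM. It was higher in origanifolium (log2 fold change 1.06, SE 0.25, edgeR adjusted p = 0.0331) and lower in marifolium (-1.21, SE 0.29, edgeR adjusted p = 0.0386), where it ran from 517 to 890 CPM.

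Steady clusters were also called in origanifolium. Rank 196 was at 509, 750, 572 and 787 CPM in origanifolium and at 300 to 572 CPM elsewhere, and overlapped only with andalusicum 1 (log2 fold change 0.72, SE 0.16, edgeR adjusted p = 0.0282). The call was lost without origanifolium 33 (0.0918), 38 (0.0640) or 39 (0.115) and without marifolium 12 and 18 (0.0761, all edgeR adjusted p). Rank 136 was at 406, 407, 467 and 421 CPM in origanifolium and at 483 to 903 CPM elsewhere, with no overlap (log2 fold change -0.72, SE 0.17, edgeR adjusted p = 0.0372). Its call held in 16 of 25 alternatives. It was lost without origanifolium 31, 33, 38 or 39 (edgeR adjusted p = 0.109, 0.101, 0.0704 and 0.108), andalusicum 8 (0.0525), or molle 25 or 27 (0.0542 and 0.0562). Without marifolium 12 and 18 it was 0.0749.

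Between the 2 codes of a subspecies 0 of the 200 clusters were called with edgeR, against 0.0326% of all tested clusters (15 of 46027). At an unadjusted p under 0.05 there were 19 members (9.50%) against 7.85% of all clusters, and the smallest adjusted p among the members was 0.171, in rank 182. Without andalusicum 1 the count was 1, with 0.0321% of all clusters tested called. DESeq2 called 15 members and edgeR without a filter on low counts 23. Of all clusters, these called 3.37% and 1.15%, so the members were called more often than clusters at large in both.

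Within subspecies few pairs of members were closely correlated. Over the 19900 pairs of members the median Pearson correlation of the deviations from subspecies means was 0.0683 (16 libraries). In all, 14 pairs reached 0.9 and 18 pairs were at -0.8 or lower. Pairs of opposite sign cancel in the median, so it does not show that members varied independently. The points share libraries and library totals, so these values are descriptions, and the pairs named were picked out after their values were seen. Ranks 9 and 85 had the highest value, 0.993: both were lowest in molle 22, at 2527 CPM for rank 9 and 517 CPM for rank 85, and highest at 6052 CPM in andalusicum 3 for rank 9 and at 1425 CPM in origanifolium 38 for rank 85. Ranks 5, 38, 44, 47, 58 and 156 formed the largest linked group, highest in marifolium 15 and lowest in molle 22 relative to their subspecies.

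Ranks 70 and 108 (0.964) followed each other over a wider range. Rank 70 was highest in origanifolium 33 at 3649 CPM and lowest in marifolium 18 at 133 CPM. Rank 108 had its extremes in the same libraries, at 2452 and 60.9 CPM. None of the 12 most alike pairs shared a gene name in the transcript list.

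The members also had features that the choice did not use directly. Of the 200 clusters, 197 held a single transcript (98.5%), against 95.9% of all tested clusters. In 150 of these the name had the Trinity form and in 47 the Oases form, which states a length. The 47 lengths ran from 681 to 7432 nucleotides with a median of 1436, against a median of 1222 over the tested clusters with a length. Per kilobase of transcript the 47 ran from 82.5 CPM in rank 144 to 3001 CPM in rank 19, with a median of 577 CPM. The order per length thus differed from that by CPM: rank 19, of 976 nucleotides, stood above all other members with a known length, and rank 144, the longest, stood lowest.

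At the edge of the list the means were 459, 458 and 456 CPM in the last 3 clusters inside it and 452, 451 and 450.5 CPM in the first 3 outside it, far closer than the spread between libraries. The last 3 inside ran from 272 to 945 CPM, from 203.2 to 756.8 CPM and from 185 to 715 CPM over the libraries. The first 3 outside ran from 179 to 793 CPM, from 242 to 865 CPM and from 0.632 to 1008 CPM. Leaving out 1 library kept 194 to 200 of the 200 clusters on the list, and ranking by the median in place of the mean kept 186.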

How the data were processed

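Poly-A RNA-seq libraries of leaves were analysed from a table of raw read counts per cluster, which the authors deposited with 1 column for each of the 16 libraries. A second deposited list pairs 122009 transcript names with clusters and holds no measurement. FastQC is named per the submitters' processing notes, with the assembler, clustering tool, aligner and counter not given in the sources used here. Every column matched a sample (0 unmatched). Clusters were ranked by mean CPM. SDs used log2(CPM + 1). Sister clusters share an assembler gene name, and linked groups of over 100 clusters were kept apart. Differences were tested with edgeR 4.0.16 (TMM, filterByExpr, quasi-likelihood F-test, Benjamini-Hochberg adjustment over 46027 clusters, threshold 0.05), an SE being the log2 fold change over the root of F. The model held the 4 subspecies and all 16 libraries, each subspecies being compared with the mean of the others. The codes of all 4 subspecies were tested jointly in a model of the 8 codes. Alternatives used DESeq2 1.42.0 and limma 3.58.1 (R 4.3.3). Scripts were tested on simulated data. Singly described were ranks 1 to 10 and 198 to 203, the 5 largest and 5 smallest SDs, the largest ratio in each subspecies, the 5 smallest p and the largest called changes. The members and lists were chosen with earlier results of these data known.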

Additional observations from a re-analysis of the deposited data

Results flagged for a closer look

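In groups of 4 libraries, a library was picked out where its gap to the nearest other, divided by the range of the group, exceeded Dixon's 95% critical value for 4 samples. This was done for the shares and the singly described clusters, 13 of 144 groups being picked out (9.03%). Some of these clusters were chosen for a large spread or ratio within subspecies, so this share is not independent of the choice. Over all 200 clusters 47 of 800 groups were picked out (5.88%), where chance gives about 5%. In molle 22 the first 10 ranks held 5.31% of the counts, below the other molle libraries. In andalusicum, library 3 stood alone in rank 7 with 6013 CPM, library 8 in rank 86 with 1347 CPM and in the third cluster outside the list with 813 CPM, and library 1 in the third cluster from the end of the list with 945 CPM, all above the other andalusicum libraries. In marifolium, library 12 stood high in rank 80 with 375 CPM, and library 15 stood low in that third-last cluster with 272 CPM and high in the first cluster outside the list with 731 CPM. In molle, library 27 was high in rank 122 with 3060.5 CPM and in rank 202 with 865 CPM, and library 29 was high in rank 168 with 422 CPM. In origanifolium, library 38 was high in rank 80 with 486 CPM and library 33 in the third-last cluster with 723 CPM.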

How the results depend on the processing

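Over the alternatives run, 191 main values and counts were labelled as kept, within a margin set for each kind of value, and 48 as moved. A count was kept where it stayed within a set factor of the main count. These labels had no way to show a reversal. For single clusters, 990 adjusted p kept their side of 0.05, 100 lost the call and 10 gained it. Across the 4 subspecies, where 14 of the 200 were called, DESeq2 called 41, voom with the code as random block 29, no filter on low counts 23, summed codes 0 and the fit without marifolium 12 and 18 called 5. In andalusicum (2) DESeq2, voom, no filter and summed codes gave 11 (9.03%), 7 (4.89%), 4 (1.90%) and 0 (0.0891%), and library totals alone 5 (3.99%). In marifolium (4) DESeq2 called 10 (9.43%), no filter 10 (9.45%) and at least 1 CPM in 8 libraries 2 (1.48%). Summed codes called 0 there (0.0219%), and the fit without marifolium 12 and 18 called 0 (0.249%). In molle (7) DESeq2 called 18 (7.81%), summed codes 0 (0.0701%) and the fit without that pair 4 (0.888%). In origanifolium (12) they called 33 (9.30%), 0 (0.0248%) and 2 (0.748%), and voom 20 (5.27%). Between codes (0) DESeq2 called 15 (3.37%) and no filter 23 (1.15%). With summed codes, edgeR gave 25, 21, 37 and 40 members an unadjusted p under 0.05 in andalusicum, marifolium, molle and origanifolium. Summed codes leave 2 samples a subspecies and the fit without the pair leaves marifolium with 2, and both let more clusters through the filter.

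Leaving out 1 library at a time gave 6 to 21 members across the 4 subspecies (the lowest without molle 25), 1 to 4 in andalusicum, 1 to 6 in marifolium, 1 to 8 in molle, 2 to 13 in origanifolium and 0 to 1 between codes. The across-subspecies count was under 10 also without andalusicum 6 or 8, molle 22, 27 or 29, or origanifolium 33 or 39. Of all clusters tested, 2.79% (without origanifolium 39) to 7.51% (without marifolium 15) were called across the 4 subspecies. The difference in share between molle and the others was 1.99 to 4.35 percentage points, the median SD 0.444 to 0.477, the number with a 4-fold range 44 to 51 and that with more variance between subspecies 44 to 65. On TMM-scaled CPM the median SD was 0.512. The cause of these shifts was not tested. No paired analysis was possible because the library numbers are not shared between subspecies.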
